A study of Mus musculus with 18 samples.

Results

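The aryl hydrocarbon receptor and 9 genes of its pathway were followed in the ileum of mice given an indole ligand of that receptor after transplantation. The 10 genes were chosen by name: Ahr, Arnt, Ahrr, Cyp1a1, Cyp1a2, Cyp1b1, Cyp2s1, Tiparp, Nqo1 and Aldh3a1. Each was taken on the probe set annotated with that symbol alone, and all 10 were measured, of 22180 genes in all. Tiparp had 2 such probe sets, of which the one with the higher mean was used, and the other genes had 1 each.

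RNA came from the ileum of 18 B10.BR mice, with 1 Affymetrix whole-transcript array for each mouse. All were 8 to 12 weeks old at transplant, were irradiated with 11 Gy and received C57Bl/6 marrow cells depleted of T cells. The mice that also received purified C57Bl/6 T cells, a graft that causes graft-versus-host disease, are called T cell mice here, and the others marrow-only mice. Indole-3-carboxaldehyde (ICA), at 150 mg/kg by gavage each day from the day before transplant, was compared with its vehicle of DMSO, PEG400 and citric acid. Among T cell mice 5 had ICA and 4 had vehicle, and among marrow-only mice likewise 5 had ICA and 4 had vehicle, all sampled on day 21. No group was left without irradiation or transplant, so every value is that of a transplanted gut holding recipient tissue and donor blood cells.

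The receptor sits in the cytosol with chaperones until a ligand such as an indole binds it. It then enters the nucleus, pairs with ARNT and binds response elements with the core letters GCGTG. Its best known targets are the cytochrome P450 enzymes of the CYP1 family, which also break down many of its ligands, and the repressors AHRR and TIPARP, which limit its activity. In the gut it is active in epithelium and in mucosal lymphocytes, and tryptophan products of diet and microbes are among its ligands.

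The promoter windows of 4 members are shown because the results turn on them: Cyp1a1 and Ahrr as targets of the receptor, Cyp1a2 as the neighbour of Cyp1a1, and Cyp2s1 as the member that passed the test in a comparison below. Each window runs from 250 bases before to 50 bases after the transcript start that the RefSeq window table uses, called the gene start here, 5′ to 3′ on the gene's strand, from RefSeq on GRCm38.p6. The windows lie at chr9:57697363-57697662 (+) for Cyp1a1, chr9:57683606-57683905 (-) for Cyp1a2, chr13:74292282-74292581 (-) for Ahrr and chr7:25816476-25816775 (-) for Cyp2s1. Capitals mark GCGTG on the strand shown.
Cyp1a1: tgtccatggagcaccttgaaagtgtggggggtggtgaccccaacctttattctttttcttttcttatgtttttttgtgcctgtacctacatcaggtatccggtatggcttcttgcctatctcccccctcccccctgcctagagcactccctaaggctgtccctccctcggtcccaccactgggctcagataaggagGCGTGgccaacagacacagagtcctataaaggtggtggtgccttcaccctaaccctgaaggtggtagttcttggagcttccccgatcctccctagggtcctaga
Cyp1a2: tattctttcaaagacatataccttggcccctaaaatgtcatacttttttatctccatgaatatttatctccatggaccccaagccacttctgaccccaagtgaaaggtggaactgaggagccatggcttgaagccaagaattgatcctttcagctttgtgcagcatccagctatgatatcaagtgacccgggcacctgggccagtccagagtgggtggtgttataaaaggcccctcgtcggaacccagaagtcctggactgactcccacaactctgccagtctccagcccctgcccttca
Ahrr: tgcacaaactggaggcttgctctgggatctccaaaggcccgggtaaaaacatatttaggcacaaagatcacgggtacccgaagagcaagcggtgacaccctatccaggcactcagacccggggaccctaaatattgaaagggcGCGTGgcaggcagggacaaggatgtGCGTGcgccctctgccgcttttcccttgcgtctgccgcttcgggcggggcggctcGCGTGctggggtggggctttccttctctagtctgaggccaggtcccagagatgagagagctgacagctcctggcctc
Cyp2s1: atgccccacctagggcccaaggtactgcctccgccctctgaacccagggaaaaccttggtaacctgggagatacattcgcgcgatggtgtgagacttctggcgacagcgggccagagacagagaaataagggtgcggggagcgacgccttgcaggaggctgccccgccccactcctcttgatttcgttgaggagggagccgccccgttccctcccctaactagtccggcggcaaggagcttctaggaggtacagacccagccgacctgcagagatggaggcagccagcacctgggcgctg

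Cyp1a1 and Cyp1a2 are read away from each other, and the starts used for these windows are 13958 bases apart. RefSeq lists more than one Cyp1a1 transcript, and the annotated gene begins upstream of this window, at base 57687928 of chromosome 9, so the window and the distance belong to one of its starts. The windows of 8 members were at hand, and 5 of them held GCGTG on either strand: Arnt, Ahrr, Cyp1a1, Cyp1b1 and Tiparp. The core in the Cyp1a1 window lay at positions -54 to -50 from the gene start, and the nearest of the 3 in the Ahrr window at -27 to -23. Of all 32851 mouse windows of this length 32.4% held it. The longer letters TNGCGTG, which contain the core, were found in 1 window, that of Ahrr, and in 5.07% of all windows. The core of the antioxidant response element, TGACNNNGC, was found in 1 window, that of Arnt, and in 12.4% of all. These are matches of letters and not sites of binding, and the windows hold no distal elements.

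**Figure D1:**
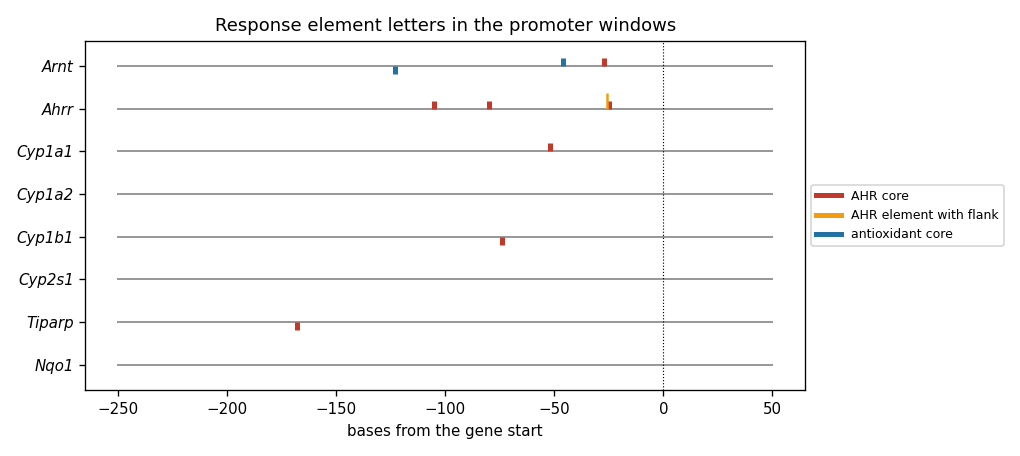
Positions of the searched letters in the windows of 8 members, in bases from the gene start (dotted line at 0). Marks above a line are on the gene's strand and marks below it on the opposite strand. Ahrr has 3 cores and Cyp1a1 has 1, while Cyp1a2, Cyp2s1 and Nqo1 show no mark.

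Array medians lay between 6.47 and 6.51 in log2, and the correlation of any 2 arrays lay between 0.970 and 0.989 across probe sets. The lowest mean correlations were those of mice 1 and 2 of the T cell mice given ICA and of mouse 2 of the marrow-only mice given ICA. Differences without these 3 arrays are given where the sign turned. The mean of 7 epithelial markers lay between 11.58 and 11.80 on all 18 arrays, and that of 6 ileal enterocyte markers between 10.37 and 11.59. All levels are log2 values after RMA, and all differences are in log2 with SE from 1 limma model of the 18 arrays. A gene passed the test at an adjusted p under 0.05 over all 22180 genes. Detection calls were not used here, so whether a gene stood above background is not shown. The number of arrays limits the precision, and samples of whole tissue do not separate fewer cells of a type from less RNA per cell.

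The first question was whether the receptor's targets differed with its ligand in T cell mice. Cyp1a1, the P450 enzyme most often used as a readout of the receptor, had the largest difference of the 10 genes, but it did not pass the test over all genes. Its levels were 6.30, 6.25, 6.16, 6.36 and 6.33 in T cell mice given ICA, against 5.71, 5.90, 5.69 and 6.00 in T cell mice given vehicle. No value with ICA reached down to the highest value with vehicle. The means were 6.28 ± 0.08 (SD, n = 5) and 5.83 ± 0.15 (SD, n = 4). The difference was 0.45 ± 0.11, or 1.37-fold, with a 95% interval of 0.22 to 0.68 (adjusted p = 0.265, unadjusted p = 0.000501 in limma).

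Cyp1a1 ranked 42 of 22180 genes by p in this comparison, and 175 genes, itself included, had a difference at least as large. Of these, 21 were olfactory or vomeronasal receptor genes. Among all 1390 such receptor genes 62.5% had a positive difference, against 46.6% of all genes. An exact two-sided permutation test of the 9 mice gave p = 0.00794, which is the smallest that 5 against 4 mice can give. Such a clean separation upward was seen in 1.11% of all genes and in 1 of the 10 members, Cyp1a1. The test over all genes called 0.0135% of genes in this comparison and 0 of the 10 members. At an unadjusted p under 0.05 it called 6.89% of genes and 1 member, Cyp1a1.

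Other features moved with the same split of the T cell mice, and their part in the Cyp1a1 difference was not tested. A clock index was formed by subtracting the mean of 5 genes that peak near dawn from the mean of 7 that peak late in the day. It lay between -1.07 and -0.70 with ICA and between -0.27 and 0.29 with vehicle. With this index as a covariate the Cyp1a1 difference was 0.78 ± 0.20 (adjusted p = 0.919, unadjusted p = 0.00103). The index did not overlap between these 2 groups, so the fit cannot separate it from ICA, and 0 of all genes passed in that fit. The mean of 6 fibroblast markers lay between 9.52 and 9.73 with ICA and between 9.35 and 9.44 with vehicle. The mean of 6 ileal enterocyte markers lay between 11.15 and 11.45 with ICA and between 11.49 and 11.59 with vehicle. Epithelial markers overlapped, at 11.60 to 11.80 with ICA and 11.69 to 11.72 with vehicle.

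**Figure D2:**
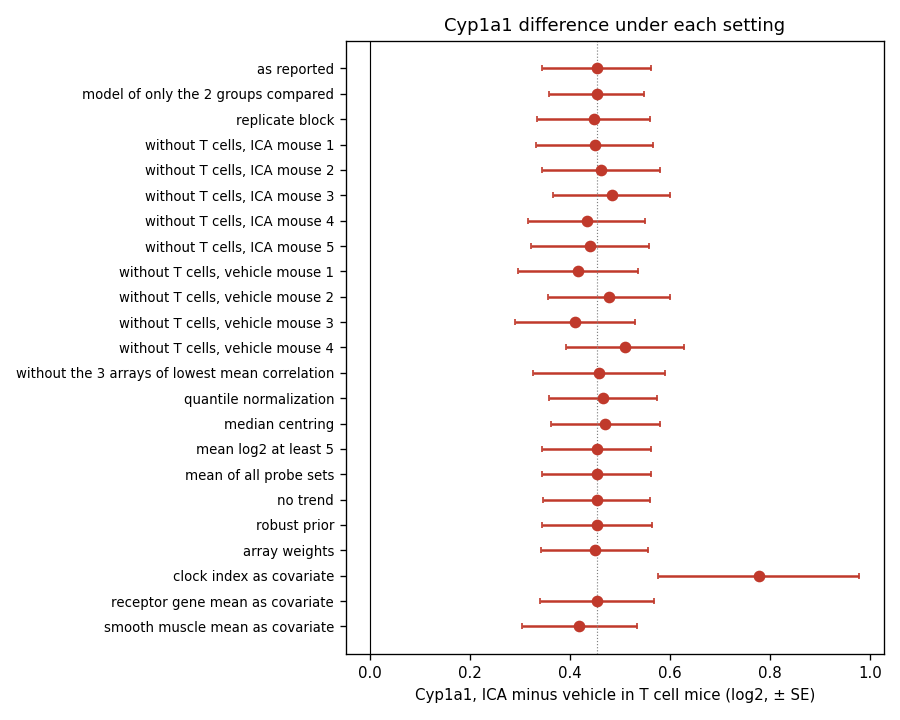
Difference of Cyp1a1 between T cell mice given ICA and those given vehicle (log2, horizontal axis) with its SE, as reported and under each other setting; the vertical line marks 0. All points lie between 0.41 and 0.78, and the largest is that with the clock index as a covariate, which did not overlap between these 2 groups.

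In marrow-only mice the same ligand was not accompanied by more Cyp1a1. The levels were 6.17, 5.95, 5.59, 5.97 and 5.92 in marrow-only mice given ICA, against 6.05, 6.21, 6.07 and 5.77 in marrow-only mice given vehicle. The groups overlapped, and no mouse given ICA was above the highest mouse given vehicle. The difference was -0.11 ± 0.11, with a 95% interval of -0.33 to 0.12 (adjusted p = 0.845). The ICA difference in T cell mice minus that in marrow-only mice was 0.56 ± 0.15, with an interval of 0.24 to 0.88, and did not pass (adjusted p = 0.677, unadjusted p = 0.00174). In that comparison 0 of 22180 genes passed and 6.68% had an unadjusted p under 0.05, with Cyp1a1 and Cyp2s1 as the 2 members among them.

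Over the 4 groups the mean of Cyp1a1 was 6.28 in T cell mice given ICA, 6.03 in marrow-only mice given vehicle, 5.92 in marrow-only mice given ICA and 5.83 in T cell mice given vehicle. The last 3 means lay within 1 SD of their neighbours, and T cell mice given ICA overlapped with marrow-only mice given vehicle, whose highest mouse was at 6.21. The spread of Cyp1a1 within groups, an SD of 0.16, was close to the median of all genes, 0.16.

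**Figure D3:**
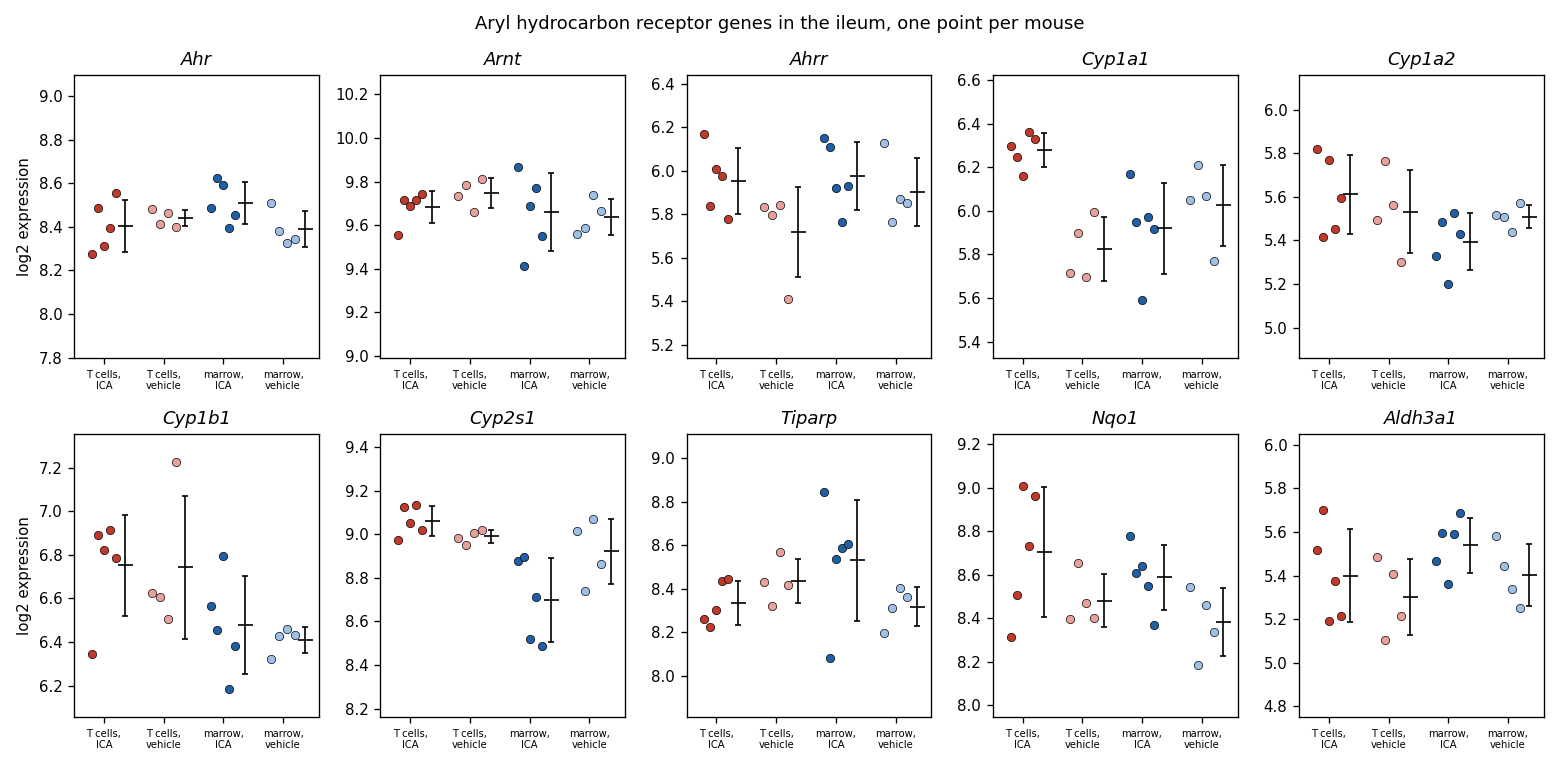
Level of each of the 10 genes (log2, vertical axes of equal height) in each mouse, from left to right T cell mice (ICA, then vehicle) and marrow-only mice (ICA, then vehicle). Bars are mean ± SD. Cyp1a1 is at 6.16 or above in all 5 T cell mice given ICA and at or below 6.00 in all 4 T cell mice given vehicle.

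The receptor itself and its partner did not pass in either arm. Ahr, which encodes the ligand-binding subunit, lay between 8.27 and 8.56 in T cell mice given ICA and between 8.40 and 8.48 in those given vehicle, a difference of -0.04 ± 0.07 (interval -0.19 to 0.12). In marrow-only mice it lay between 8.39 and 8.62 with ICA and between 8.32 and 8.51 with vehicle, a difference of 0.12 ± 0.07 (interval -0.03 to 0.27). Its SD within groups was 0.09, at percentile 5.38 of all genes. Arnt, which also partners the hypoxia-inducible factors, differed by -0.06 ± 0.08 with ICA in T cell mice (interval -0.23 to 0.10) and by 0.02 ± 0.08 in marrow-only mice (interval -0.15 to 0.19).

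Of the feedback genes, Ahrr leaned upward with ICA in T cell mice without passing. Ahrr, a repressor that competes with the receptor for ARNT, was at 6.17, 5.84, 6.01, 5.97 and 5.78 in T cell mice given ICA, against 5.83, 5.80, 5.84 and 5.41 in T cell mice given vehicle. In 3 mice given ICA it was above all mice given vehicle, and vehicle mouse 4 was low. The difference was 0.23 ± 0.11 (interval -0.0015 to 0.47, adjusted p = 0.728), and it was 0.13 without that mouse. In marrow-only mice the difference was 0.07 ± 0.11. Tiparp, an ADP-ribosyltransferase that feeds back on the receptor, lay between 8.22 and 8.44 in T cell mice given ICA and between 8.32 and 8.57 in those given vehicle, a difference of -0.10 ± 0.11. In marrow-only mice its levels were 8.84, 8.08, 8.53, 8.59 and 8.60 with ICA, against 8.20, 8.31, 8.41 and 8.36 with vehicle. There 4 mice given ICA were above all mice given vehicle and mouse 2 was below them all, for a difference of 0.21 ± 0.11 (adjusted p = 0.665). Without mouse 2 the difference was 0.32 (adjusted p = 0.678). The second Tiparp probe set averaged 4.27 with ICA and 4.32 with vehicle in T cell mice, and 4.36 with ICA and 4.29 with vehicle in marrow-only mice.

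None of the other P450 genes passed with ICA in either arm, and differences between these genes and Cyp1a1 were not tested. Cyp1a2, its close paralogue, differed by 0.08 ± 0.11 with ICA in T cell mice (interval -0.14 to 0.30) and by -0.11 ± 0.11 in marrow-only mice (interval -0.34 to 0.11). The sequences of the probes were not used here, so signal shared between these paralogues could not be examined. Cyp1b1, a P450 enzyme of stromal and vascular cells, differed by 0.01 ± 0.14 in T cell mice and by 0.07 ± 0.14 in marrow-only mice. It was the most variable member, with an SD within groups of 0.23, at percentile 82.4 of all genes. Cyp2s1, a P450 enzyme of epithelia, differed by 0.07 ± 0.09 with ICA in T cell mice and by -0.22 ± 0.09 in marrow-only mice (adjusted p = 0.635, unadjusted p = 0.0203). Cyp2s1 was the 1 member with an unadjusted p under 0.05 in marrow-only mice, where 7.52% of genes were below that level and 0.00451% passed the test.

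Nqo1 and Aldh3a1, which encode enzymes that detoxify quinones and aldehydes, had positive differences in both arms without passing. Nqo1 was at 8.31, 8.51, 9.01, 8.73 and 8.96 in T cell mice given ICA, against 8.40, 8.66, 8.47 and 8.40 in T cell mice given vehicle. It was at 8.78, 8.61, 8.64, 8.55 and 8.37 in marrow-only mice given ICA, against 8.54, 8.19, 8.46 and 8.34 in marrow-only mice given vehicle. In T cell mice 3 of 5 mice given ICA were above all mice given vehicle, and in marrow-only mice 4 of 5 were. The T cell mice given ICA with the lowest Nqo1, mice 1 and 2, were among the 3 arrays of lowest mean correlation. The differences were 0.22 ± 0.12 in T cell mice and 0.21 ± 0.12 in marrow-only mice (adjusted p = 0.780 and 0.707). The mean of both was 0.21 ± 0.09, with an interval of 0.03 to 0.40 (adjusted p = 0.568, unadjusted p = 0.0226). In that mean over both arms 0.0135% of genes passed and 0 members did, while Cyp1a1 and Nqo1 were the 2 members among the 7.73% of genes with an unadjusted p under 0.05. Aldh3a1 differed by 0.10 ± 0.11 in T cell mice and by 0.14 ± 0.11 in marrow-only mice.

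Taken as a list, the 10 genes had a median ICA difference of 0.08 in T cell mice, against -0.01 for all genes, and 7 of the 10 differences were positive, against 46.6% for all genes. In marrow-only mice the median was 0.07, against 0.01 for all genes, and again 7 of 10 were positive, against 53.5% for all genes. The 3 negative ones were Ahr, Arnt and Tiparp in T cell mice and Cyp1a1, Cyp1a2 and Cyp2s1 in marrow-only mice.

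**Figure D4:**
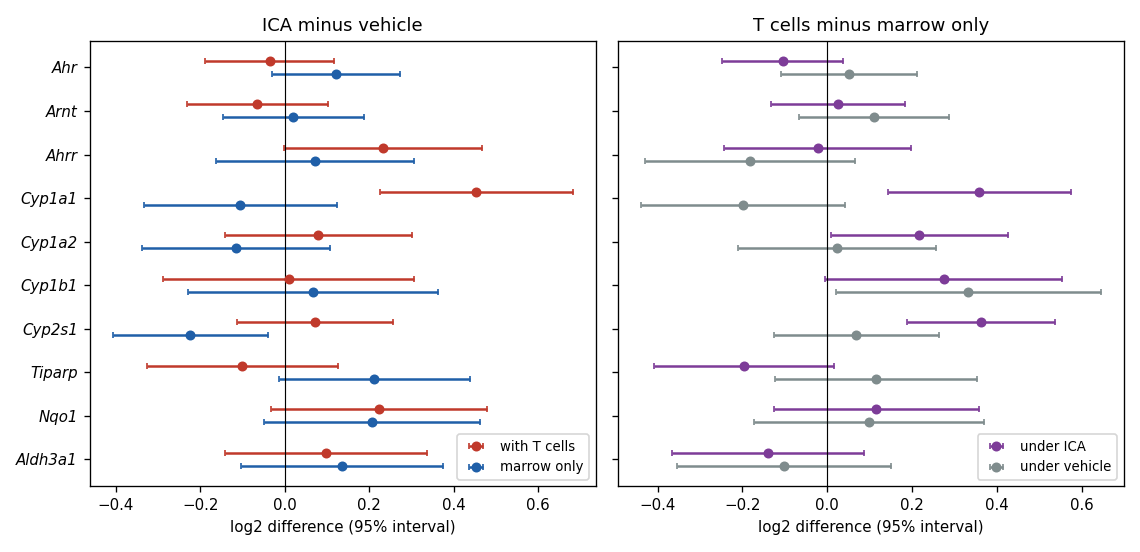
Difference of each gene (log2, points) with its 95% interval (bars). The left panel shows ICA minus vehicle, with T cell mice in red above marrow-only mice in blue, and the right panel T cell mice minus marrow-only mice, under ICA in purple above vehicle in grey. The Cyp1a1 interval in T cell mice, 0.22 to 0.68, and the Cyp2s1 interval under ICA, 0.19 to 0.54, lie above 0.

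The second question was whether donor T cells changed these genes. Under ICA, Cyp2s1 rose and was the 1 member that passed. It was at 8.97, 9.12, 9.05, 9.13 and 9.02 in T cell mice given ICA, against 8.88, 8.89, 8.52, 8.71 and 8.49 in marrow-only mice given ICA. The groups did not overlap, with 1.16% of all genes as cleanly higher. The difference was 0.36 ± 0.08, or 1.29-fold (adjusted p = 0.0187), in a comparison where 3.12% of genes passed and 1.05% of genes rose. The call was lost without marrow-only ICA mouse 3 or 5 or T cell ICA mouse 2 (differences of 0.32, 0.31 and 0.35, adjusted p = 0.0596, 0.0697 and 0.0530), and with a model of only these 2 groups (adjusted p = 0.0817).

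Under vehicle the same comparison gave no such separation for Cyp2s1. It was at 8.98, 8.95, 9.003 and 9.02 in T cell mice given vehicle, against 9.01, 8.74, 9.07 and 8.86 in marrow-only mice given vehicle. All T cell mice lay between the lowest and highest marrow-only mouse, for a difference of 0.07 ± 0.09 (adjusted p = 0.833). These comparisons and those of ICA with vehicle share the same 4 groups, so the low Cyp2s1 of marrow-only mice given ICA enters both its rise here and its negative ICA difference above.

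Smooth muscle markers had higher means with T cells under ICA and under vehicle. Under ICA all 6 of them rose with T cells, and their mean lay between 11.07 and 11.54 in T cell mice given ICA, against 10.73 to 10.96 in marrow-only mice given ICA. Under vehicle it lay between 11.04 and 11.39 in T cell mice, against 10.70 to 10.99 in marrow-only mice. In marrow-only mice it averaged 10.88 with ICA and 10.89 with vehicle. With the smooth muscle mean as a covariate, which was added once the data had been examined, the Cyp2s1 difference with T cells under ICA was 0.33 ± 0.13 (adjusted p = 0.558). The clock index lay between -1.07 and -0.70 in T cell mice given ICA and between -1.91 and -1.48 in marrow-only mice given ICA. With the clock index as a covariate the Cyp2s1 difference with T cells under ICA was 0.06 ± 0.17 (adjusted p = 0.962). Neither the smooth muscle mean nor the index overlapped between these 2 groups, so the fits cannot separate them from the graft. In the fit with the index 0 of all genes passed. Under vehicle the index lay between -0.27 and 0.29 in T cell mice and between -1.82 and -1.21 in marrow-only mice. The mean of 6 fibroblast markers lay between 9.52 and 9.73 in T cell mice given ICA, against 9.19 to 9.41 in marrow-only mice given ICA. The mean of 6 ileal enterocyte markers lay between 11.15 and 11.45 in T cell mice given ICA, against 10.37 to 11.47 in marrow-only mice given ICA. Of these markers 5 had higher means with T cells, and Sis, the sucrase of the brush border, rose by 0.79 ± 0.17 (adjusted p = 0.0100). The mean of general epithelial markers lay at 11.60 to 11.80 in T cell mice given ICA and at 11.58 to 11.78 in marrow-only mice given ICA. The part of the clock index and of smooth muscle, fibroblast and enterocyte markers in the Cyp2s1 difference was not tested.

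**Figure D5:**
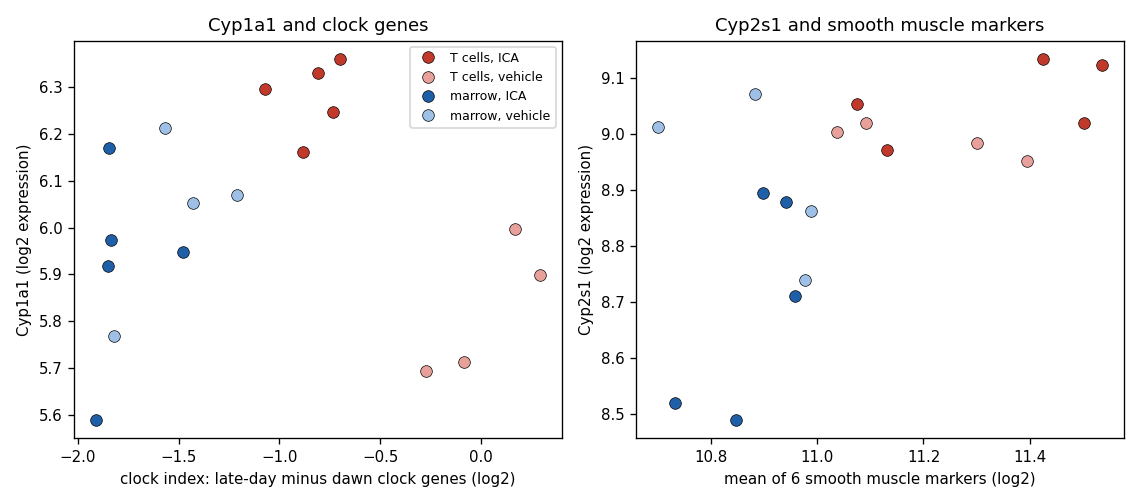
Left, Cyp1a1 against the clock index of each mouse, and right, Cyp2s1 against the mean of 6 smooth muscle markers (all axes log2), with 1 point for each of the 18 mice coloured by group. On the clock index all T cell mice given vehicle lie right of all T cell mice given ICA, and on the smooth muscle mean all T cell mice lie right of all marrow-only mice.

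Under ICA Cyp1a1, Cyp1a2 and Cyp2s1 were the 3 members among the 16.6% of genes at an unadjusted p under 0.05, all with higher means in T cell mice, and of these Cyp2s1 alone passed. Cyp1a2 differed by 0.22 ± 0.10 under ICA (interval 0.0081 to 0.43, adjusted p = 0.280) and by 0.02 ± 0.11 under vehicle. Cyp1a1 differed by 0.36 ± 0.10 under ICA (interval 0.14 to 0.57, adjusted p = 0.0631) and by -0.20 ± 0.12 under vehicle (interval -0.44 to 0.04, adjusted p = 0.503). Without marrow-only ICA mouse 1 the difference of Cyp1a1 under ICA was 0.42 and passed (adjusted p = 0.0178), and with the clock index as a covariate it was 0.01 ± 0.21. Cyp1b1 was at 6.63, 6.61, 6.51 and 7.23 in T cell mice given vehicle, against 6.32, 6.43, 6.46 and 6.43 in marrow-only mice given vehicle. All T cell mice were above all marrow-only mice, as for 6.33% of genes, and mouse 4 was far above the other T cell mice. The difference of Cyp1b1 was 0.33 ± 0.15 under vehicle (adjusted p = 0.341), or 0.17 without that mouse, and 0.27 ± 0.13 under ICA (adjusted p = 0.311). Under vehicle 1.47% of genes passed and 0 members did, with Cyp1b1 as the 1 member among the 13% of genes at an unadjusted p under 0.05, and the 10 genes had a median difference of 0.06, against 0.01 for all genes. Under ICA the median was 0.07, against -0.01 for all genes.

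No relation of Cyp1a1 with another member from mouse to mouse passed the test. Over the 18 mice, after group means were removed, Pearson's r of Cyp1a1 with the 9 other members ran from -0.13 (Ahr) to 0.35 (Cyp2s1), and Spearman's rho ran from -0.15 (Aldh3a1) to 0.43 (Arnt). The smallest of the 9 permutation p for Pearson's r was 0.151 for Cyp2s1 (adjusted p = 0.998), and for Spearman's rho it was 0.0744 for Arnt (adjusted p = 0.670). Without the 2 mice farthest from the Cyp1a1 median, marrow-only ICA mouse 3 and marrow-only vehicle mouse 4, r with Cyp2s1 was 0.06, r with Arnt was 0.48 and r with Cyp1b1 was 0.50 (permutation p = 0.0487, not adjusted), against 0.02 for Cyp1b1 with all mice. The points share the quality of each array. As a description, the 5 genes outside the pathway with the highest r with Cyp1a1 over the 18 mice were Ap3b2, Olfr655, Ftdc1, Mir717 and Opcml, with r between 0.72 and 0.76. Olfr655 belongs to the olfactory receptors, and olfactory and vomeronasal receptors made up 6 of the 100 genes with the highest r and 6.27% of all genes.

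Other parts of the pathway were counted from lists chosen by knowledge of the receptor, with earlier results of these data known. With ICA, 0 members of any of the 4 lists passed in T cell mice or in marrow-only mice. In T cell mice the lists had 1 of 9 partners and coregulators, 0 of 10 other reported targets, 1 of 13 genes of the antioxidant regulator NRF2, and 0 of 7 genes of mucosal lymphocytes that need the receptor at an unadjusted p under 0.05, against 6.89% of all genes. Hsp90aa1, a chaperone that holds the receptor in the cytosol, differed by 0.22 ± 0.09 there, and Slc7a11, the cystine importer, by -0.64 ± 0.22 (adjusted p = 0.660 and 0.527). Of the other targets, Ido2, an enzyme of tryptophan breakdown, differed by -0.21 ± 0.10 and Il22, the barrier cytokine of mucosal lymphocytes, by 0.24 ± 0.16 (adjusted p = 0.738 and 0.814). In marrow-only mice 2 of the other targets and 0 of the remaining 3 lists had an unadjusted p under 0.05, against 7.52% of all genes. There Scin, an actin-severing protein induced by dioxin in mice, differed by -0.90 ± 0.20 with ICA (adjusted p = 0.561, unadjusted p = 0.000189). Nfe2l2, which encodes NRF2, differed by 0.18 ± 0.07 (adjusted p = 0.635).

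With T cells, 1 member of 2 of these lists passed under vehicle, where 1.47% of all genes passed, and 1 or 2 members of each list under ICA, where 3.12% did. Hsp90aa1 fell by 0.49 ± 0.10 under vehicle (adjusted p = 0.0155) and by 0.34 ± 0.09 under ICA (adjusted p = 0.0369). Il23r, the interleukin 23 receptor of type 17 lymphocytes, fell by 0.71 ± 0.16 under vehicle (adjusted p = 0.0315) and by 0.77 ± 0.15 under ICA (adjusted p = 0.00495). The mean of 6 T cell markers lay between 7.46 and 8.31 in T cell mice given ICA, against 6.72 to 7.79 in marrow-only mice given ICA, and between 7.55 and 8.502 in T cell mice given vehicle, against 6.57 to 7.17 in marrow-only mice given vehicle. Those markers did not move one way: under ICA Cd8a rose by 1.98 ± 0.22 while Cd4 fell by 0.71 ± 0.19 (adjusted p = 5.18e-05 and 0.0448), and under vehicle Cd8a rose by 2.02 ± 0.25 (adjusted p = 0.000268) and Cd4 differed by -0.16 ± 0.21. The part of these cell markers in the Il23r difference was not tested. Under ICA Scin rose by 1.15 ± 0.19 (adjusted p = 0.00123), while Slc7a11 fell by 0.87 ± 0.21 (adjusted p = 0.0250) and Ncoa1, a coactivator of nuclear receptors, fell by 0.31 ± 0.08 (adjusted p = 0.0384). The other list members did not pass. Over each whole list, called genes included, the median difference under ICA was -0.01 for partners, 0.04 for other targets, 0.04 for NRF2 genes and -0.20 for lymphocyte genes, against -0.01 for all genes.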

How the data were processed

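The authors extracted total RNA with Trizol and labelled it for Affymetrix whole-transcript arrays, per the labels' protocols. RMA, Partek and GenomeStudio appear in the submitters' processing notes, without versions, and neither filters nor the log base are stated. The values the authors deposited were read as log2, from their range and array medians between 6.47 and 6.51. Platform annotation gave 1 symbol to 23521 of 41345 probe sets, and the probe set of highest mean was kept for each of 22180 genes. The 10 genes and all lists were chosen with earlier results of these data known.

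One limma 3.58.1 model in R 4.3.3, with a mean for each of 4 groups and a variance trend (14 residual and 6.1 prior degrees of freedom), gave 6 two-sided comparisons, adjusted by Benjamini and Hochberg over all genes. It was tested on simulated data. The text names all 10 genes, up to 3 genes of each pathway list by p, and the 5 genes of highest r with Cyp1a1. Exact permutation tests covered single genes, and 100000 permutations the 9 relations with Cyp1a1. Mice that share a replicate number had deviations correlating between -0.06 and 0.13, so the numbers were not taken as pairs. Alternatives were smaller models, the number as a block, omitted mice, other normalization, filter, probe sets, prior variance and weights, and a clock index as covariate. The olfactory receptor and smooth muscle covariates were added after the data were seen.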

Additional observations from a re-analysis of the deposited data

Results flagged for a closer look

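In 4 of the 40 sets of values of a gene in a group, 1 mouse stood apart, with its gap to the next mouse divided by the range of the group above the 95% value of Dixon's test, which about 1 in 20 such sets would pass without cause. T cell ICA mouse 1, the array with the lowest mean correlation with the others, was low in Arnt at 9.55 (ratio 0.713) and low in Cyp1b1 at 6.35 (ratio 0.771). T cell vehicle mouse 4 was low in Ahrr at 5.41 (ratio 0.888) and high in Cyp1b1 at 7.23 (ratio 0.835). Without T cell vehicle mouse 4 the ICA difference in T cell mice was 0.13 for Ahrr and 0.17 for Cyp1b1, and that of Cyp1a1 was 0.51.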

How the results depend on the processing

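Member differences were counted first under all settings other than leaving out 1 mouse. Of these, 733 kept their direction and side of the threshold, 24 turned their sign and 3 lost their call. With 1 mouse left out these were 676, 39 and 3, and 2 gained a call. The Cyp1a1 difference with ICA in T cell mice stayed between 0.41 and 0.78 (adjusted p from 0.0904 to 0.919). Under ICA the T cell comparison called 0 members with a model of the 2 groups, with the clock index and with the smooth muscle mean. With the clock index 0 of all genes passed in that comparison, against 693 as reported. With 1 mouse left out the comparison called 0 to 2 members, while 378 to 1373 of all genes passed. Cyp1a1 then passed without marrow-only ICA mouse 1 and Tiparp without marrow-only ICA mouse 2 (-0.31, adjusted p = 0.0357). For ICA against vehicle in the 2 arms, members whose groups did not overlap numbered 1 to 2 with 1 mouse left out. With all mice such an upward separation was seen in 1.11% of genes in T cell mice and 1.35% in marrow-only mice. The share of all genes with 1 mouse left out was not computed.

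Signs turned as follows, in each case of a difference that had not passed, and the cause was not tested. Without the 3 arrays of lowest correlation, Aldh3a1 was -0.042 with ICA in T cell mice, the Cyp1b1 difference between arms 0.025, Arnt 0.025 over both arms and -0.0047 with T cells under ICA. Array weights made the Cyp1b1 difference between arms 0.030. With the clock index, Ahr was 0.055 and Cyp1a2 -0.016 with ICA in T cell mice, the Cyp1b1 difference between arms 0.16, and Cyp2s1 0.11 and Tiparp -0.15 over both arms. With T cells under vehicle, Ahr was then -0.11, Cyp1b1 -0.23, Cyp2s1 -0.43, Nqo1 -0.37 and Aldh3a1 0.011, and under ICA Ahrr was 0.066, Cyp1b1 -0.071, Tiparp 0.14 and Nqo1 -0.18. The mean of 1390 olfactory and vomeronasal receptor genes averaged 4.43 ± 0.15 (n = 5) in T cell mice given ICA and 4.38 ± 0.03 (n = 4) in those given vehicle. With it as a covariate Arnt was -0.00095 with ICA in marrow-only mice, the Cyp1b1 difference between arms 0.054 and Nqo1 -0.0095 with T cells under vehicle. With the smooth muscle mean, Arnt was -0.085 and Ahrr 0.13 with T cells under ICA. Correlations with Cyp1a1 turned to -0.421 for Aldh3a1 without 2 mice, and to 0.192 for Ahrr, 0.264 for Cyp1a2 and -0.189 for Tiparp with group means kept.

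With 1 mouse left out, the ranges that crossed 0 were -0.069 to 0.17 for Cyp1b1 with ICA in T cell mice, -0.032 to 0.082 for Arnt and -0.012 to 0.14 for Cyp1b1 in marrow-only mice. Between arms they were -0.14 to 0.10 for Cyp1b1, -0.060 to 0.11 for Nqo1 and -0.11 to 0.022 for Aldh3a1, and over both arms -0.048 to 0.0086 for Arnt, -0.056 to 0.021 for Cyp1a2 and -0.0014 to 0.12 for Cyp1b1. With T cells they were -0.055 to 0.10 for Cyp1a2 under vehicle, and -0.076 to 0.022 for Ahrr and -0.037 to 0.076 for Arnt under ICA.

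Of all genes, 3 passed with ICA in T cell mice, with 1 to 9 when 1 mouse was left out and 0 to 49 under other settings. In marrow-only mice 1 passed (0 to 119, and 0 to 1), over both arms 3 (1 to 97, and 0 to 10), with T cells under vehicle 327 (94 to 326, and 0 to 1074) and under ICA 693 (378 to 1373, and 0 to 1049). With the replicate number as a block the Cyp1a1 difference was 0.45 (adjusted p = 0.338) and the Cyp2s1 difference 0.36 (adjusted p = 0.0317), and no call of a member changed, while genes called numbered 4, 0, 2, 382 and 685 in the same order. Titles call the mice biological replicates, and the number of arrays limits every value.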
